A study of Mus musculus with 17 samples.

Results

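The 9 genes described here are 8 interferon-inducible GTPases, namely Gbp2, Gbp3, Gbp4, Gbp5 and Gbp7 of the guanylate-binding proteins and Irgm1, Igtp and Iigp1 of the immunity-related GTPases, together with Irf1, a transcription factor that switches them on. They were chosen as a named list, and all 9 were found among the 28208 genes common to 5 single-cell libraries and among the 14653 genes tested in 12 bulk libraries. The single-cell libraries hold leukocytes sorted for CD45 from mouse pancreatic tumours, taken 3 weeks after cells were implanted into the pancreas, although the labels call them infiltrating T cells. There is 1 untreated library for each genotype, namely flfl_CD4Cre (both Cd274 copies floxed, with Cre driven by the Cd4 promoter), flWT_CD4Cre (1 copy floxed, with the same Cre), CD4Cre (Cre without a floxed copy), flfl (both copies floxed, no Cre) and WT. Cd274 encodes PD-L1, and Cd4 promoter Cre acts in T cells, so the question was what other tumour cells do when T cells lack this ligand. The bulk libraries, 3 per group, are titled PD1_Fc and Ctrl_Fc (a PD-1 Fc fusion protein or a control Fc, each at 2.5 µg/ml), PDL1_Fc, and Control (stimulation alone). All 12 carry the label of wild-type T cells from spleen, given a CD3 and CD28 stimulus, and neither the animals nor their ages are given.

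Interferon gamma, made chiefly by T and natural killer cells, acts through GAS elements and raises Irf1 in many cell types. Irf1 then binds ISRE elements, which type I interferon also uses through other factors, and both routes raise the GTPases. Guanylate-binding proteins coat vacuoles that hold pathogens and bacteria in the cytosol, and help inflammasomes to form. Among the immunity-related GTPases, Irgm1 and Igtp are regulators that sit on the cell's own membranes, and Iigp1 is an effector that attacks vacuoles.

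Promoter sequences show the 2 kinds of element that link these genes, and are printed for that reason. RefSeq promoters on GRCm38.p6, reaching from 250 bases before to 50 bases after each start, were at hand for 7 of the 9 genes. The ISRE core searched was GAAANNGAAA, with TTTCNNTTTC as its other strand, and the GAS element searched was TTCNNNGAA, which reads the same on both strands. The ISRE core was present in 6 of the 7 genes, against 3.99% of 27025 genes with a promoter entry, and the GAS element in 4 of 7, against 9.55%. At least 1 of the 2 was present in 7 of 7, against 12.9% of all genes. Of 9 other guanylate-binding or immunity-related GTPase genes with an entry, 7 held the ISRE core and 5 the GAS element. A match is a stretch of letters and does not show that a factor binds there. Each sequence below runs 5′ to 3′ on the strand of its gene, with matches in capitals.
Gbp2, chr3:142620553-142620652, plus strand: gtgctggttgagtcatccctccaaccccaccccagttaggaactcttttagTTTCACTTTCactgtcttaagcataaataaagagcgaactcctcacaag
Gbp3, chr3:142559934-142560033, plus strand: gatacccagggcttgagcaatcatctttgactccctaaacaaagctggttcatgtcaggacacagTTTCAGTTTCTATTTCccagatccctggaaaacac
Gbp5, chr3:142496764-142496893, plus strand: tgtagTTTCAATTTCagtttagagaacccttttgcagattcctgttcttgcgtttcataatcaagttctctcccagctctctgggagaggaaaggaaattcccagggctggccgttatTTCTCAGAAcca
Gbp7, chr3:142530226-142530325, plus strand: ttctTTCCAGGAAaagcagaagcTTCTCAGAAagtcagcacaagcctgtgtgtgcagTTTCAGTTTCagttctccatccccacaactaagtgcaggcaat
Irgm1, chr11:48871431-48871530, minus strand: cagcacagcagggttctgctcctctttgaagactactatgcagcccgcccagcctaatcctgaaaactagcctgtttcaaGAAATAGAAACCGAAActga
Igtp, chr11:58199446-58199545, plus strand: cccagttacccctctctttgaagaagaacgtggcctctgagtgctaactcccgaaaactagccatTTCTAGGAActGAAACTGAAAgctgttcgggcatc
Irf1, chr11:53769904-53770003, plus strand: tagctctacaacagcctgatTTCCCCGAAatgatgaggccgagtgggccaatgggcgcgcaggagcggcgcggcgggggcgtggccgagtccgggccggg
In Gbp2 the ISRE core began 59 bases before the start, and in Gbp7 it began 53 bases before it, after GAS matches at 106 and 87 bases. Gbp3 and Irgm1 each held a pair of overlapping ISRE matches, at 45 and 39 bases before the start in Gbp3 and at 30 and 24 bases in Irgm1. Igtp held a GAS match at 45 bases and an ISRE match at 34 bases. Gbp5 held its ISRE match at 165 bases and GAS matches at 245 bases, outside the stretch printed, and at 52 bases. Irf1 held a GAS match at 90 bases and no ISRE match in its window. On GRCm38 the gene models of Gbp5, Gbp7, Gbp3 and Gbp2 lie in that order between chr3:142493978 and chr3:142638008 on the plus strand, Gbp4 at chr5:105115767-105139586 on the minus strand, and Irgm1, Irf1 and Igtp at 3 places on chromosome 11.

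Several facts about the libraries bear on what follows. After filtering, 4225 cells were kept in flfl_CD4Cre, 4386 in flWT_CD4Cre, 5358 in CD4Cre, 2796 in flfl and 2813 in WT, with median UMIs per cell of 10950, 5037, 4844, 10764.5 and 11136 in that order. A UMI is a molecular tag that counts 1 captured RNA. The 3 libraries with Cre shared many cell barcodes with each other, 1414 to 1856 per pair or 26.5% to 34.7% of the smaller library, while flfl and WT shared 12. Cells were assigned by marker UMIs to macrophage, monocyte, dendritic, T or tumour classes, and markers not used in that step were highest in their own class for 7 of 7 macrophage and 7 of 7 T cell markers in every library. The counts were 4 to 6 of 6 for monocytes, 5 to 6 of 8 for dendritic cells and 5 to 7 of 7 for tumour cells. Cells with at least 10 UMIs of keratins or Epcam and none of Ptprc, the gene of CD45, passed the tumour gate in all libraries although the sort was for CD45, and 91.5%, 80.1% and 91.6% of them carried a shared barcode in flfl_CD4Cre, flWT_CD4Cre and CD4Cre. File names and labels disagree for flWT_CD4Cre and WT, and the labels were followed. Levels are CPM, a gene's share of all UMIs of its class in a library on the counts-per-million scale, and intervals are exact 95% Poisson intervals that cover counting error only. With 1 library per genotype no difference between genotypes has a replicate check.

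The floxed gene itself is given first. In the T gate Cd274 stood at 36.6 CPM in flfl_CD4Cre, 34.3 in flWT_CD4Cre and 67.5 in CD4Cre, from 24, 25 and 57 UMIs, and at 8.71 CPM in flfl against 7.23 in WT. In macrophages it stood at 131 CPM in flfl_CD4Cre, 179 in flWT_CD4Cre and 195 in CD4Cre, and at 40.1 CPM in flfl against 31.9 in WT. Which bases are floxed is not given in the sources used here, so UMIs of the gene do not check the deletion. Among the gated classes Ifng, the gene of interferon gamma, was highest in the T gate of each library. It stood there at 71.8 CPM in flfl_CD4Cre, 275 in flWT_CD4Cre, 63.9 in CD4Cre, 121 in flfl and 91.2 in WT. In the other 4 classes it did not pass 2.18 CPM in any library. Natural killer cells had no gate of their own, and their markers summed to 111 to 217 CPM in the T gate.

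UMIs of all 9 genes were found in macrophages, monocytes, dendritic cells and T cells of each library, down to 7 Iigp1 UMIs in 1 cell and 3 Gbp5 UMIs in 3 cells of WT monocytes, and the class with the highest level differed from gene to gene. Irf1 was highest in dendritic cells of the 3 Cre libraries, at 337 CPM in flfl_CD4Cre, 377 in flWT_CD4Cre and 361.5 in CD4Cre, a mean of 358 ± 19.7 (SD, n = 3 libraries). The next class, monocytes, averaged 219.5 ± 42.97 CPM, and the 2 ranges did not overlap. Macrophages followed with 168 ± 47.7, T cells with 148 ± 35.7 and tumour cells with 85.5 ± 19.5 CPM. Monocytes, macrophages and T cells overlapped with their neighbours in this order, and tumour cells lay below T cells without overlap. In flfl and WT the lead was absent from the dendritic gate as a whole. Irf1 stood at 56.7 and 54.7 CPM there, within the range of 44.98 to 78.5 CPM in their macrophages. The gate held another mix of dendritic cells in flfl and WT, given below with the Irf1 level of each kind.

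Gbp5, which promotes assembly of the NLRP3 inflammasome, followed the same order at its top. It averaged 223 ± 18.5 CPM in dendritic cells of the Cre libraries, above 132 ± 2.76 in monocytes without overlap, then 99.99 ± 39.5 in macrophages, 44.3 ± 12.3 in T cells and 25.4 ± 12.5 in tumour cells. In flfl and WT its dendritic level was 16.9 and 16.7 CPM. Gbp2, a guanylate-binding protein recruited to bacteria and vacuoles, had its highest mean over the Cre libraries in monocytes, at 401 CPM in flfl_CD4Cre, 341 in flWT_CD4Cre, 353.5 in CD4Cre, 151 in flfl and 91.8 in WT. Its lowest class was T cells, at 73.3, 69.9 and 56.8 CPM in the same 3 Cre libraries and 30.7 and 28.0 CPM in flfl and WT. Macrophages, tumour cells and dendritic cells lay between by mean and overlapped each other in the Cre libraries, and in flfl_CD4Cre macrophages, at 424 CPM, were above monocytes.

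Gbp7, which has been tied to oxidative defence in mouse macrophages, had its highest mean over the Cre libraries in macrophages and its lowest in dendritic cells. It averaged 236 ± 26.8 CPM in macrophages of the Cre libraries and 31.4 ± 10.2 CPM in their dendritic cells, and no other class was below 98.8 CPM in any Cre library. The monocyte, T and tumour ranges overlapped those of their neighbours. Gbp7 exons overlap those of Gm43802, a processed pseudogene on the same strand, over 11.3% of their length, so reads there cannot be assigned with certainty. Gbp3 averaged 94.5 ± 38.9 CPM in macrophages and 94.1 ± 4.74 in monocytes of the Cre libraries, and every neighbouring pair of classes overlapped. Gbp4 differed little among immune classes there, from 85.4 ± 22.2 CPM in macrophages to 111 ± 18.8 in monocytes, with overlap between all neighbours. Its tumour level of 15.5 ± 14.2 CPM lay below them without overlap, and flfl tumour cells had 0 Gbp4 UMIs of 995819, which at 3 counts allows up to 3.01 CPM, while the exact interval reaches 3.70 CPM.

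The 3 immunity-related GTPases did not share an order. Irgm1 averaged 131 ± 16.4 CPM in monocytes of the Cre libraries, overlapping with 106 ± 28.1 in tumour cells, and was lowest in dendritic cells at 37.4 ± 16.1. Igtp was about level between monocytes at 106 ± 11.6 and T cells at 105 ± 22.7 CPM, both above macrophages at 65.7 ± 10.8 without overlap between the T and macrophage ranges. Its exons overlap those of Irgm2 over 8.0% of their length, so reads there cannot be assigned with certainty. Iigp1 had its highest mean in macrophages, at 364 CPM in flfl_CD4Cre, 180.1 in flWT_CD4Cre and 231 in CD4Cre, and overlapped with the tumour gate at 212 ± 114 CPM, which was the higher in flWT_CD4Cre (200.3 CPM) and CD4Cre (331 CPM). In dendritic cells it varied widely, with 132 CPM in flfl_CD4Cre dendritic cells against 21.5 in flWT_CD4Cre and 14.0 in CD4Cre.

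**Figure D1:**
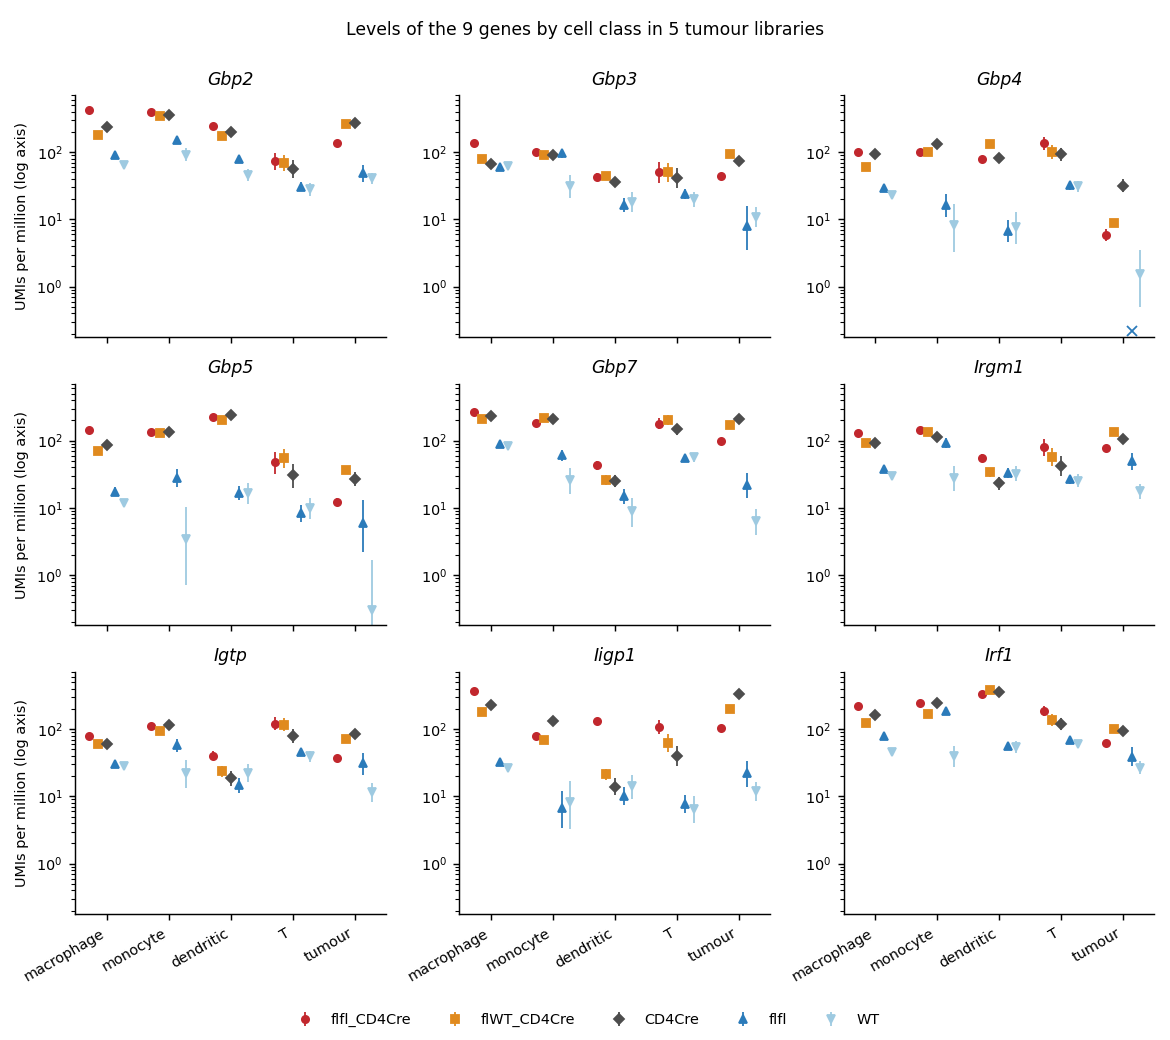
CPM of each gene (log axis) by cell class, with 1 symbol per library and bars for 95% Poisson intervals; a cross at the bottom marks 0 UMIs. Irf1 and Gbp5 peak in dendritic cells of the 3 Cre libraries, at 337 to 377 and 206 to 243, while flfl and WT lie lower for all 9 genes in macrophages, T cells and the tumour gate.

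The most constant contrast lay between the library sets. In macrophages each of the 9 genes was lower in both flfl and WT than in every Cre library, as were 57.0% of the 3710 genes at 50 CPM or more in any library. For Gbp2 the macrophage levels were 424, 181 and 235 CPM in flfl_CD4Cre, flWT_CD4Cre and CD4Cre, and 90.2 and 64.4 in flfl and WT. The same held for 9 of 9 genes in T cells (background 46.6%) and in the tumour gate (52.8%), for 7 in monocytes (46.3%) and for 6 in dendritic cells (48.8%). Set and Cre cannot be told apart, and other facts moved with the set, among them the shared barcodes, the dendritic makeup given below, the markers of the tumour gate and the share of T cells, 1.44% to 1.98% of cells in the Cre libraries and 19.6% and 12.9% in flfl and WT. Within the macrophage gate, macrophage markers summed to 13658 to 16815 CPM in the Cre libraries and 47855 to 57169 CPM in flfl and WT. Monocyte markers there summed to 945 to 1186 CPM in the Cre libraries and 211 to 319 CPM in flfl and WT. Dendritic markers summed to 8626 to 10366 CPM and 41205 to 46023 CPM in the same gate. In the dendritic gate itself they summed to 7205 to 9316 CPM and 32668 to 39239 CPM, so this sum does not separate dendritic cells from macrophages. The part of these in the contrast was not tested.

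The pair flfl_CD4Cre and CD4Cre asks what changes in the tumour when T cells lack PD-L1, with Cre in both libraries. A gene counted as past the fold when its levels differed by at least 1 on the log2 scale, the intervals did not overlap and the higher level was at least 50 CPM. In macrophages all 9 genes were higher in flfl_CD4Cre, with a median log2 ratio of 0.50 against 0.0085 over all genes. Only Gbp3 was past the fold, with 139 CPM in flfl_CD4Cre and 65.8 in CD4Cre, a log2 ratio of 1.08 (0.94 to 1.21). Of all genes 2.30% were past it, 1.53% as higher. The next largest were Gbp2 at 424 against 235 CPM (0.85), Gbp5 at 145 against 85.5 CPM (0.76) and Iigp1 at 364 against 231 CPM (0.66). Without the barcodes found in a second library, 34.5% of flfl_CD4Cre and 45.8% of CD4Cre macrophages, no gene was past the fold and 8 of 9 ratios were above 0. Gbp3 was then at 0.64 and Iigp1 at 0.18.

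Other interferon lists had smaller or opposite median ratios in macrophages. Of 14 further GTPases of these families found, 1 was past the fold upward and 11 ratios were above 0, with a median of 0.19 over those at 50 CPM. Of 24 genes of the interferon gamma pathway none was past it, 17 ratios were above 0 and the median was 0.12, with Cxcl9 at 883 against 715 CPM. Of 19 genes typical of type I interferon none was past it either, 14 ratios were below 0 and the median was -0.43. Isg15, a ubiquitin-like modifier, stood at 136 CPM in flfl_CD4Cre and 217 CPM in CD4Cre.

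In monocytes of the same pair none of the 9 genes was past the fold (0.820% of all genes were), and 5 ratios were above 0. Iigp1 had the largest difference, at 79.0 CPM in flfl_CD4Cre and 134 CPM in CD4Cre, a log2 ratio of -0.76 (-0.99 to -0.53). Gbp5 and Irf1 were nearly level, at 134.1 against 133.9 CPM and at 246 against 243 CPM.

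In dendritic cells 2 of the 9 genes were past the fold, against 2.08% of all genes (1.82% as higher), and both are immunity-related GTPases. Iigp1 stood at 132 CPM in flfl_CD4Cre and 14.0 CPM in CD4Cre, a log2 ratio of 3.23 (2.81 to 3.69). Irgm1 stood at 55.0 against 23.5 CPM (1.23, 0.86 to 1.61), while Irf1, at 337 against 361.5 CPM, and Gbp5, at 221 against 243 CPM, were slightly lower in flfl_CD4Cre. The Iigp1 signal sat in few cells: its 556 UMIs lay in 26 of 287 cells, 80.4% of them in the top 5. Fibroblast markers summed to 935 CPM in this class in flfl_CD4Cre with all 4 detected, to 407 in flWT_CD4Cre and to 0 in CD4Cre. Without the 8 flfl_CD4Cre and 4 CD4Cre cells that held at least 5 UMIs of fibroblast or tumour markers, neither gene was past the fold, with Iigp1 at 2.15 and Irgm1 at 0.98. No gene was past it without shared barcodes either, which 7 and 3 of those cells carried, although Iigp1 and Irgm1 then still had ratios of 1.64 and 1.18.

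In T cells all 9 ratios were above 0, from 0.28 for Gbp3 and Gbp7 to 1.43 for Iigp1 (0.82 to 2.06), which alone was past the fold, at 108 CPM in flfl_CD4Cre and 40.3 CPM in CD4Cre. These are 71 and 34 UMIs from 61 and 106 cells, and 12.8% of all genes were past the fold in this class, 9.35% as higher. Irgm1 stood at 79.4 against 42.6 CPM (0.90) and Irf1 at 188 against 119.6 CPM (0.65). Type I interferon genes had a larger median ratio here than the 9, at 2.20 over 10 genes and 0.58 over 8, those at 50 CPM or more in the higher library. A filter passed through 1 library alone can raise such a median. Of the 19 type I genes 6 were past the fold upward, and 16 of 18 ratios were above 0. Ifit3 stood at 149.6 against 9.47 CPM and Ifit1 at 160.3 against 20.1 CPM, and both reached 50 CPM only in flfl_CD4Cre. Keratin and Epcam UMIs summed to 568 CPM in flfl_CD4Cre T cells and 39.1 CPM in CD4Cre T cells, and 4 cells with shared barcodes held 39.9% of the flfl_CD4Cre UMIs. Without shared barcodes Iigp1 was still past the fold, at 1.80, as were 4.22% of all genes.

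In the tumour gate the direction was the opposite, with 9 of 9 ratios below 0 and a median of -0.99 over the 7 genes at 50 CPM. Past the fold were Iigp1, at 104 CPM in flfl_CD4Cre and 331 CPM in CD4Cre (-1.67, -1.79 to -1.55), Igtp, at 37.4 against 85.0 CPM (-1.18), and Gbp7, at 98.8 against 213 CPM (-1.11). That is 3 of 9, against 0.655% of all genes, 0.341% as lower. Gbp2 lay just under the fold at 136 against 269 CPM (-0.99). In the CD4Cre gate the top 5 cells held 55.5% of the Iigp1 UMIs, 53.1% for Gbp2, 50% for Igtp and 42.8% for Gbp7. The intervals do not cover such spread between cells. Of 23 interferon gamma pathway genes with a ratio 21 were below 0 and 3 were past the fold downward, while 11 of 19 type I interferon genes were above 0. The 2 gates hold 437 and 107 cells, and nearly all their UMIs, 96.9% and 95.2%, came from barcodes also found in another library. Without them 3 genes were past the fold but so were 6.53% of all genes, 7 of the 9 ratios were negative, Gbp3 was at 0.22, and no ratio could be formed for Gbp4. With cells thinned to 2000 UMIs, and those below that left out, none was past it. Gbp2 was then at -1.14, Igtp at -1.04, Iigp1 at -1.30, Irf1 at -2.04 and Irgm1 at 0.38. The other 4 gave no finite ratio but counted as higher in flfl_CD4Cre, so 5 of the 9 were higher there and 4 lower.

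**Figure D2:**
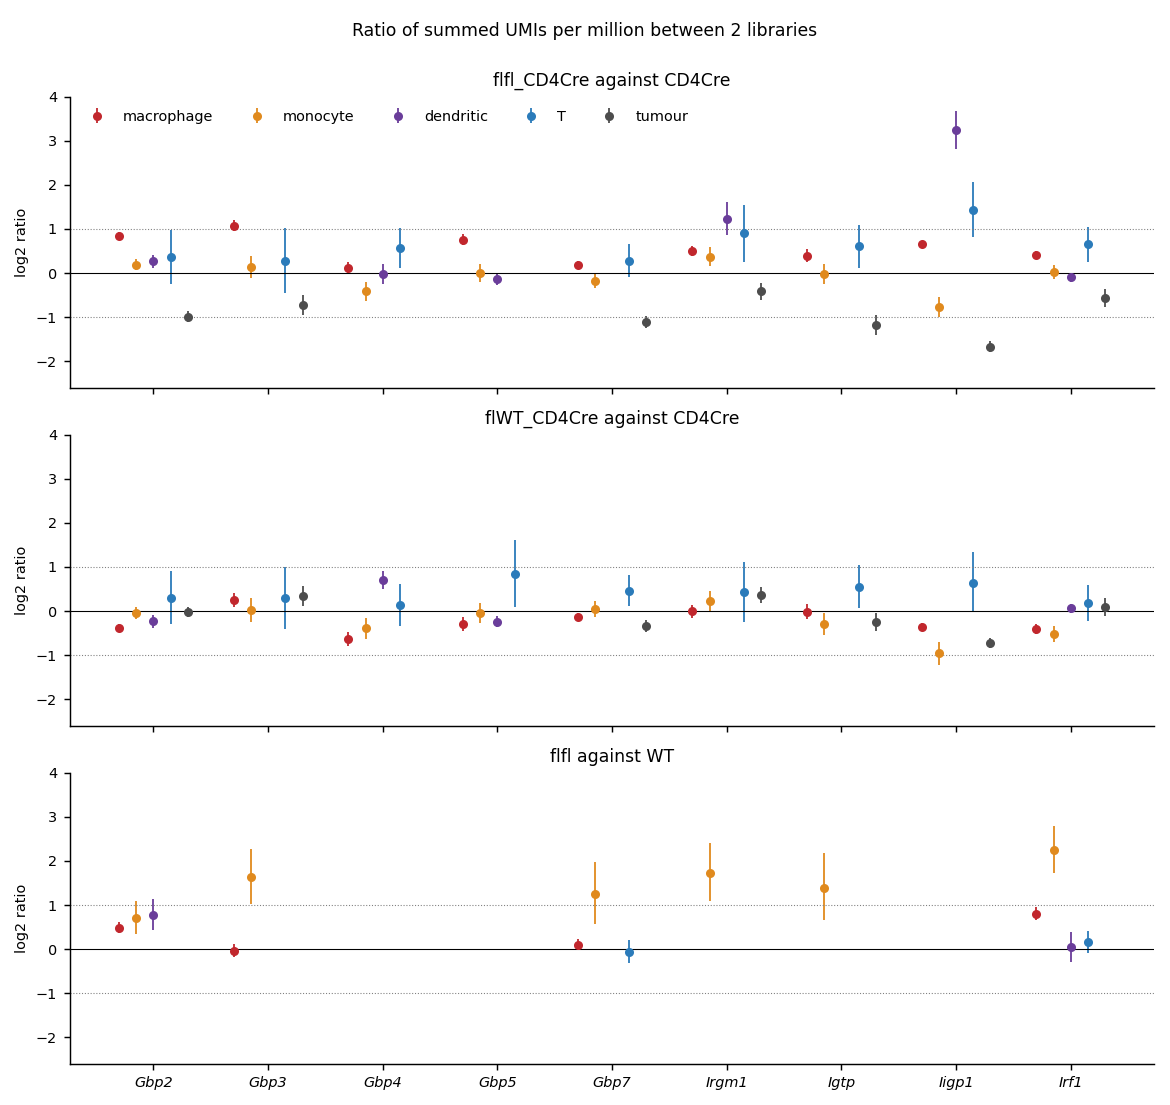
Log2 ratios of CPM between 2 libraries, by gene and cell class (colour), with 95% intervals, for genes at 50 CPM or more in the higher library; dotted lines mark the fold of 1. In flfl_CD4Cre against CD4Cre all macrophage points lie above 0 and all tumour points below it, and Iigp1 in dendritic cells reaches 3.23.

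**Figure D3:**
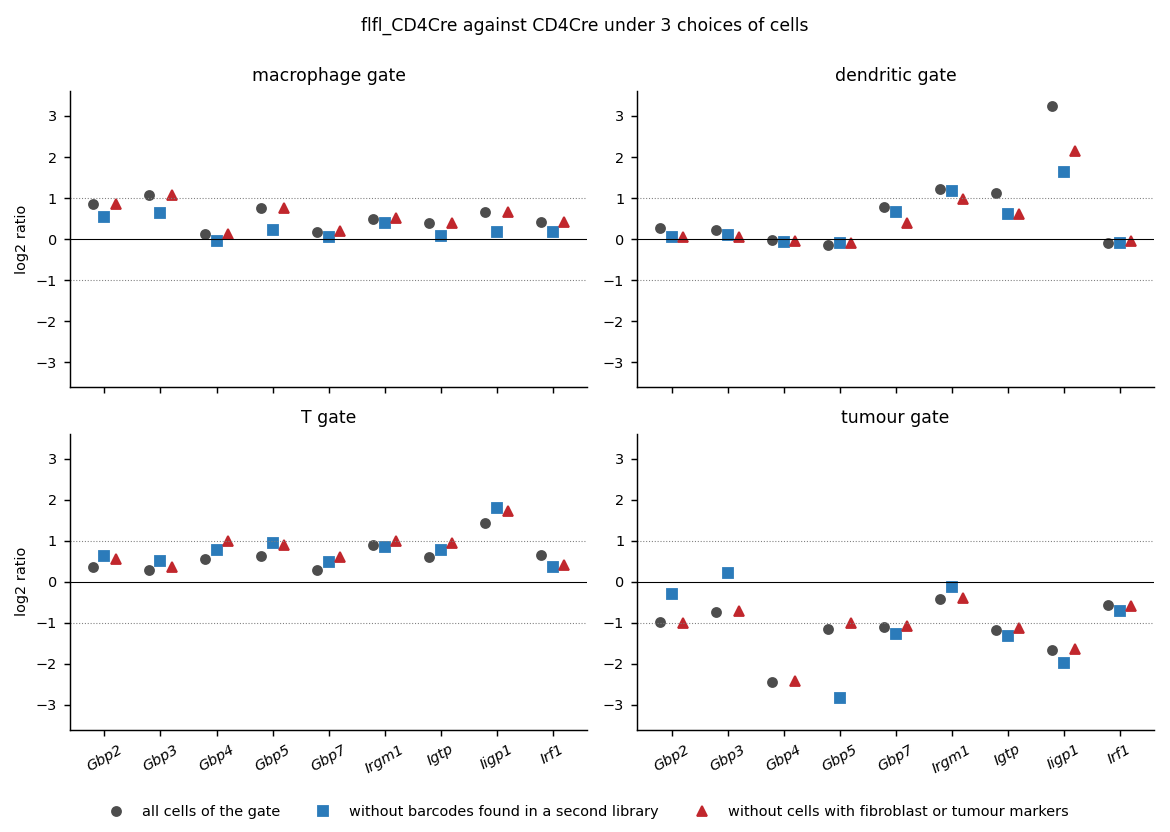
Log2 ratios of flfl_CD4Cre against CD4Cre for the 9 genes in 4 gates, with all cells, without barcodes found in a second library and without cells holding fibroblast or tumour markers. Iigp1 in dendritic cells moves from 3.23 to 1.64 and 2.15, Gbp3 in macrophages from 1.08 to 0.64 and 1.08, and a missing symbol (Gbp4 in the tumour gate) means that no ratio could be formed.

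The pair flWT_CD4Cre and CD4Cre asks the same for mice with 1 floxed copy. None of the 9 genes was past the fold in any class, where 1.54% of all genes in macrophages, 3.53% in monocytes, 3.37% in dendritic cells, 7.28% in T cells and 0.661% in the tumour gate were. In macrophages 8 of 9 ratios were below 0, from Gbp4 at 60.2 against 93.8 CPM (-0.64) to Irgm1 at 90.7 against 91.3 CPM (-0.0088), and Gbp3 was higher at 78.8 against 65.8 CPM (0.26). By the mean of per-cell CPM 6 of these 9 ratios were above 0, Gbp2 (0.04), Iigp1 (0.12) and Irf1 (0.04) among them. In monocytes Iigp1 was nearest to the fold, at 68.8 CPM in flWT_CD4Cre and 134 CPM in CD4Cre (-0.96). In T cells 9 of 9 ratios were above 0, with a median of 0.43, against 43.1% and a median of -0.085 over all genes. These rest on 70 and 106 cells. Without doublet removal 7 were above 0, as without shared barcodes, and 8 without cells with other markers.

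All 19 type I interferon genes were higher in flWT_CD4Cre in 3 classes of this pair. In macrophages 19 of 19 were higher in flWT_CD4Cre, with 3 past the fold and a median log2 ratio of 0.69 over those at 50 CPM, against -0.30 for the 9 genes. In monocytes 19 of 19 were higher and 11 past the fold, with a median of 1.24 against -0.05. In the tumour gate 19 of 19 were higher and 5 past the fold, with a median of 1.20 against -0.02. These medians cover 16 of the 19 genes in macrophages, 18 in monocytes and 8 in the tumour gate. A gene enters when either library reaches 50 CPM, and entry through flWT_CD4Cre alone can raise such a median. In dendritic cells 16 of 19 were above 0 and 1 past the fold, with a median of 0.39 against 0.0068 over all genes. In T cells they did not share a direction, with 11 above 0 and 6 below. Shared barcodes held 89.7% of tumour-gate UMIs in flWT_CD4Cre and 95.2% in CD4Cre. The shares were 22.1% and 50.6% in macrophages, and 1.86% and 13.9% in monocytes. Macrophages had a median of 3119.5 UMIs per cell in flWT_CD4Cre and 11262 in CD4Cre. The part of barcodes and depth in these ratios was not tested.

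The pair flfl and WT has no Cre in either library, so floxed sites alone differ by label. Monocytes held the only differences past the fold, in 5 of the 9 genes against 6.75% of all genes, 4.21% as higher. Irf1 stood at 187 CPM in flfl and 39.5 CPM in WT (2.24, 1.73 to 2.80), Irgm1 at 92.1 against 27.9 CPM (1.72), Gbp3 at 96.9 against 31.4 CPM (1.63), Igtp at 57.3 against 22.1 CPM (1.38) and Gbp7 at 60.4 against 25.6 CPM (1.24). These rest on 176 and 76 cells, and on 19 to 34 UMIs per gene in WT. Globin genes summed to 149 CPM in flfl monocytes and 4678 CPM in WT monocytes, and their part in the result was not tested. With cells thinned to 2000 UMIs 1 gene was past the fold, with Gbp3 at 2.23, Irgm1 at 1.45, Igtp at 1.23 and Irf1 at 3.45 and no ratio for the other 5. In the other 4 classes no gene was, against 2.44% of all genes in macrophages, 5.84% in dendritic cells, 1.56% in T cells and 2.79% in the tumour gate. In macrophages Irf1 differed most, at 78.5 against 44.98 CPM (0.80).

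Within each library the 9 genes were higher in macrophages with Cxcl9 UMIs than in those without. Cxcl9 is a chemokine induced by interferon gamma that draws T cells. Gbp2 stood at 658, 276, 385, 179 and 141 CPM in Cxcl9-positive macrophages of flfl_CD4Cre, flWT_CD4Cre, CD4Cre, flfl and WT. The Cxcl9-negative macrophages had 231, 98.3, 104, 61.3 and 39.9 CPM in the same order, so the 2 sets did not overlap within any library. Iigp1 stood at 521, 274, 353, 80.4 and 75.2 CPM with Cxcl9, against 236, 98.3, 124, 16.4 and 10.3 CPM without it. The ratio was above 0 with separate intervals in 5 of 5 libraries for each of the 9 genes, as it was for 2.31% of all genes at 50 CPM or more in either kind of cell of any library. The median log2 ratio over libraries was 1.55 for Gbp2, 1.504 for Iigp1, 1.48 for Gbp5, 1.40 for Gbp4, 0.92 for Igtp, 0.69 for Irgm1, 0.68 for Irf1, 0.60 for Gbp7 and 0.58 for Gbp3. Iigp1 varied most, from 1.14 in flfl_CD4Cre to 2.87 in WT.

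Depth differed between the 2 kinds of cell, most in flWT_CD4Cre with a median of 7820 against 1211 UMIs per cell and least in WT with 12620 against 11444. Cells were then thinned to 2000 UMIs before the split, and cells below that were left out. Over all classes these were 1143 cells in flfl_CD4Cre, 1667 in flWT_CD4Cre, 1316 in CD4Cre and 0 in flfl and WT. Most Cxcl9-negative macrophages of flWT_CD4Cre fell below it, so the thinned split covers a selected part of them. The 9 genes kept a median ratio above 0, from 0.76 for Gbp7 to 2.11 for Gbp2. They were higher in 5 of 5 libraries except Gbp7, which was higher in 4. Of all genes 6.27% were then higher in 5 of 5. The thinned intervals were apart in 5 of 5 libraries for Gbp2 and Iigp1, as they were for 0.527% of all genes in this direction, in 4 for Gbp4, Gbp5, Igtp and Irf1, and in 3 for Gbp3, Gbp7 and Irgm1. No test was made over the 5 libraries, since 3 of them share barcodes.

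**Figure D4:**
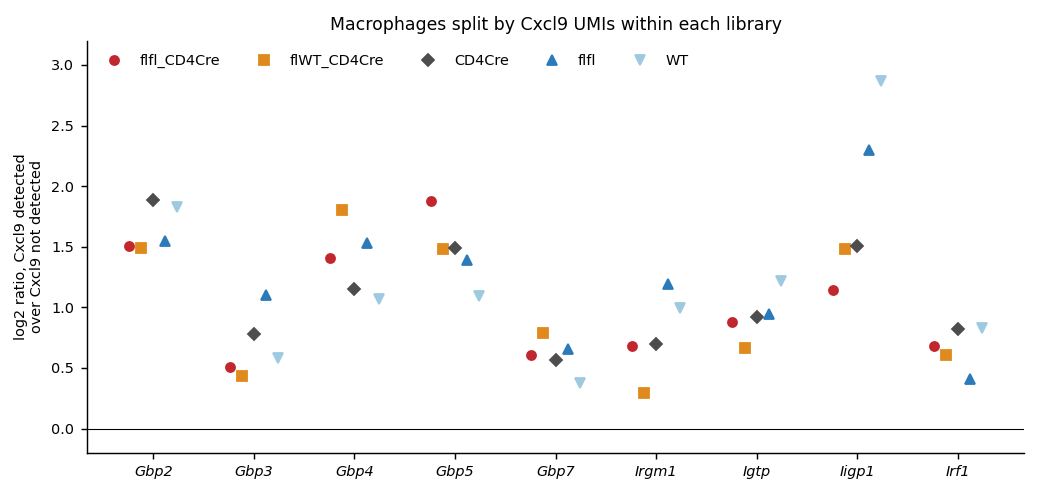
Log2 ratio of macrophages with Cxcl9 UMIs over those without, for each gene and library (symbols as named in the legend, all UMIs). Every one of the 45 points lies above 0, with Gbp2 between 1.49 and 1.88 and Iigp1 reaching 2.87 in WT.

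Dendritic cells held 2 kinds with different members of the family. Cells with Ccr7 or Fscn1, which mark migratory dendritic cells, made up 238, 366 and 292 of the 287, 390 and 323 cells in flfl_CD4Cre, flWT_CD4Cre and CD4Cre, but 64 of 230 in flfl and 26 of 105 in WT. Cells with Xcr1 or Clec9a, which mark cross-presenting dendritic cells, numbered 20, 15, 12, 144 and 70. Irf1 stood at 376, 395, 402, 148 and 74.8 CPM in the Ccr7 or Fscn1 cells, against 101, 172, 64.5, 31.1 and 50.6 CPM in the Xcr1 or Clec9a cells. Gbp5 stood at 261, 220.5, 269.6, 47.6 and 57.2 CPM, against 42.5, 80.9, 39.7, 8.85 and 3.72 CPM. Both were higher in the Ccr7 or Fscn1 cells in 5 of 5 libraries, as were Gbp2 and Gbp4, with median log2 ratios of 1.90 for Irf1, 2.62 for Gbp5, 2.10 for Gbp2 and 3.23 for Gbp4. Of all genes at 50 CPM or more in either kind of any library, which 7 of the 9 reached, 23.6% were higher in 5 of 5. The intervals were apart in all libraries for Gbp2 and Gbp5, as for 6.88% of all genes, and in all but WT for Irf1 and Gbp4.

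Irgm1 was lower in the Ccr7 or Fscn1 cells, and the other immunity-related GTPases had no shared direction over libraries. Irgm1 stood at 50.5, 29.0, 19.4, 21.5 and 24.2 CPM in the Ccr7 or Fscn1 cells, against 64.9, 97.8, 79.4, 38.0 and 37.9 CPM in the Xcr1 or Clec9a cells. It was lower in 5 of 5 libraries, as were 19.7% of all genes, with intervals apart in 2. Iigp1 was lower in 4 of 5, the exception being flfl_CD4Cre with 153 against 112 CPM, and in CD4Cre it stood at 4.60 CPM against 154 CPM, on 14 and 31 UMIs. Igtp was higher in 2 libraries and lower in 3, and Gbp7 was lower in 4 of 5.

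T cells split by coreceptor gave few UMIs. Gbp2 stood at 47.6, 39.4, 40.6, 23.9 and 23.2 CPM in cells with Cd8a or Cd8b1, against 129, 139, 62.9, 124 and 65.7 CPM in cells with Cd4, in the library order used above. Gbp2, Irgm1, Igtp and Iigp1 were lower in the Cd8 cells in 5 of 5 libraries, with median log2 ratios of -1.50, -0.65, -1.67 and -2.81, and intervals apart in 3, 1, 3 and 3 libraries. Of all genes at 50 CPM or more 11.0% were lower in 5 of 5. Cells with Cd4 numbered 28, 25, 49, 34 and 36, and for Iigp1 the Cd8 cells gave 3 to 21 UMIs per library.

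Across the 25 sums of a class in a library, the 9 genes varied together, with Pearson's r of log2(CPM + 10) against the mean of the other 8 from 0.72 for Gbp4 to 0.84 for Gbp3. Single pairs ran from 0.37 for Gbp4 and Irgm1 to 0.95 for Gbp5 and Irf1. Of 6455 other genes at 50 CPM or more in any sum, the 10 most like the mean of the 9 were Parp9 (0.95), Ripk1 (0.94), N4bp1 (0.93), Parp14 (0.93), Irf9 (0.93), Rnf213 (0.93), Eif2ak2 (0.92), Acap2 (0.91), Tln1 (0.91) and Pcnx (0.91). Within the 15 sums of the Cre libraries their r lay between 0.65 and 0.80. These are descriptions over points that share libraries and, in part, barcodes.

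The bulk libraries fell into 2 sets that differ in more than treatment. PD1_Fc and Ctrl_Fc libraries held 4364803 to 5006301 and 3473884 to 4662029 gene counts with about 80% of reads not aligned (79.9% to 80.4%), against 14880455 to 16020727 in PDL1_Fc and 16732833 to 18557390 in Control with 8.95% to 11.2%. Cd3e, part of the CD3 complex that carries the T cell receptor signal, stood at 194 to 200 CPM in the first set and 0 to 0.251 CPM in the second. Lyz2, a lysozyme of macrophages, stood at 20.8 to 107 CPM in the first set and at 22556 to 32436 CPM in the second, so the T cell label is not borne out in PDL1_Fc and Control. B2m encodes beta-2 microglobulin, a subunit of MHC class I molecules, and stood at 10.1 to 68.3 CPM in the first set and at 15614 to 16600 CPM in the second. Pseudogenes took 9.85% to 10.1% of gene counts in the first set and 0.179% to 0.186% in the second, and reads given to no gene for any reason were 87.9% to 88.2% and 42.6% to 44.4% of all reads. The treatment field also contradicts the titles of PD1_Fc_3 and all 3 PDL1_Fc libraries, and the titles were followed. In bulk RNA fewer cells of a type and less RNA per cell cannot be told apart.

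PD1_Fc against Ctrl_Fc addresses the effect of the PD-1 fusion protein beyond that of an Fc alone, and the 9 genes showed no detected difference. Gbp5 stood at 166, 147 and 154 CPM in PD1_Fc, against 151, 132 and 163 CPM in Ctrl_Fc (log2 difference 0.06, SE 0.10). Gbp2 stood at 54.3, 41.4 and 48.2 CPM in PD1_Fc, against 44.8, 43.8 and 62.1 CPM in Ctrl_Fc (-0.07, SE 0.13). Irf1 stood at 45.4, 43.005 and 39.8 CPM in PD1_Fc, against 42.3, 43.5 and 45.2 CPM in Ctrl_Fc (-0.03, SE 0.12). The groups overlapped for each of these 3 genes, and for the other 6, while 8.87% of all genes had groups that did not overlap.

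Lower still were Gbp7, at 33.2, 31.3 and 24.2 CPM in PD1_Fc against 28.5, 29.4 and 29.2 CPM in Ctrl_Fc, and Gbp3, at 6.44, 6.12 and 7.76 against 5.28, 6.86 and 8.27 CPM. Gbp4 stood at 4.35, 3.50 and 4.12 CPM in PD1_Fc, against 4.02, 2.48 and 4.75 CPM in Ctrl_Fc. The immunity-related GTPases were hardly counted. Irgm1 had 7, 1 and 1 counts in PD1_Fc and 1, 2 and 7 in Ctrl_Fc. Igtp had 4, 2 and 0 against 1, 0 and 1, and Iigp1 had 1, 0 and 0 against 0, 0 and 1. The Irgm1 counts of 7 were in PD1_Fc_1 and Ctrl_Fc_3, the libraries of this set richest in Lyz2 (613 and 606 counts). Most reads of this set were not aligned and B2m itself had only 50 to 388 counts. A low count here therefore does not show low expression. None of the 9 was called by edgeR's quasi-likelihood test at an adjusted p of 0.05, where 0.0478% of all genes were (0.0409% as lower), and 771 genes had an unadjusted p under 0.05. DESeq2 called 18 genes and none of the 9. Of 12 other GTPases of these families and 24 interferon gamma pathway genes none was called, and of 20 type I interferon genes 1 was, Mx2 (-0.72, adjusted p = 0.0414). The adjusted p of the 9 genes lay between 0.932 and 1. In simulated counts for this comparison the test found 58.2% of the changes set at 1.5-fold and 94.0% of those set at 2-fold. Changes were set only in genes above a minimum level, which Gbp4, Irgm1, Igtp and Iigp1 did not reach in Ctrl_Fc. These shares therefore do not cover those genes.

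PDL1_Fc against Control, at higher counts, gave no called difference for the 9 genes. Gbp2 stood at 1092, 1116 and 1191 CPM in PDL1_Fc, against 973, 1157 and 1281 CPM in Control (-0.0046, SE 0.10). Irf1 stood at 317, 314 and 311 CPM in PDL1_Fc, against 340, 319 and 294 CPM in Control (-0.02, SE 0.09). Igtp stood at 131, 141 and 138 CPM in PDL1_Fc, against 126, 118 and 131 CPM in Control, and was the only one of the 9 whose groups did not overlap, as was so for 8.13% of all genes, with a log2 difference of 0.13 (SE 0.10) and an edgeR adjusted p of 1. Gbp7 had the largest difference, at 34.2, 38.0 and 39.7 CPM in PDL1_Fc against 31.5, 37.8 and 26.7 CPM in Control (0.22, SE 0.12, adjusted p = 1). None of the 9 was called by edgeR, nor was any other gene (0% of all genes), 528 had an unadjusted p under 0.05, and DESeq2 called 0. In simulated counts it found 82.1% of those at 1.5-fold and 97.0% of those at 2-fold. The difference between the 2 effects was not called for any of the 9 either, where edgeR called 0.00682% of all genes, 802 had an unadjusted p under 0.05, and DESeq2 called 5 genes.

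Ctrl_Fc against Control crosses the 2 sets, in which 91.8% of all genes were called, 47.4% as lower and 44.4% as higher, so counts of calls say little about the family. Gbp3 fell to 5.28, 6.86 and 8.27 CPM in Ctrl_Fc, against 342, 368 and 373 CPM in Control (-5.71, SE 0.14, edgeR adjusted p = 1.34e-47). Gbp2 fell to 44.8, 43.8 and 62.1 CPM, against 973, 1157 and 1281 CPM (-4.49, SE 0.13, adjusted p = 1.72e-38). Irf1 fell to 42.3, 43.5 and 45.2 CPM in Ctrl_Fc, against 340, 319 and 294 CPM in Control (-2.86, SE 0.10, adjusted p = 5.51e-37). Irgm1 had 1, 2 and 7 counts in Ctrl_Fc, against 282, 313 and 290 CPM in Control (-8.82, SE 0.21). Igtp had 2 counts over the Ctrl_Fc group and Iigp1 had 1, against 1682 to 1811 and 195 to 288 counts per Control library. All of these were called lower, as was Gbp4.

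Gbp5 and Gbp7 differed least between these groups. Gbp5 was 151, 132 and 163 CPM in Ctrl_Fc, against 211, 259 and 256 CPM in Control (-0.70, SE 0.10, adjusted p = 1.24e-09). Gbp7 was 28.5, 29.4 and 29.2 CPM in Ctrl_Fc, against 31.5, 37.8 and 26.7 CPM in Control (-0.14, SE 0.13, adjusted p = 0.305), and was the 1 gene of the 9 not called. With library sizes alone in place of TMM factors, which moves the median of all genes from -0.13 to 0.61, the difference was 0.05 for Gbp5 and 0.60 for Gbp7, so their direction depends on the scaling. Of 12 other guanylate-binding or immunity-related GTPase genes tested, 10 were called lower and 2 higher. Gbp2-ps, a pseudogene beside Gbp2 at chr3:142658948-142669041, held 485 to 756 counts per library in PD1_Fc and Ctrl_Fc and 0 or 1 in PDL1_Fc and Control, so the Gbp2 counts of the first set, 212 to 353, are uncertain. PD1_Fc against PDL1_Fc, also across the sets (91.8% of all genes called, 46.8% as lower), gave 9 of 9 called lower, Gbp7 included at -0.34 (SE 0.13, adjusted p = 0.0142).

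**Figure D5:**
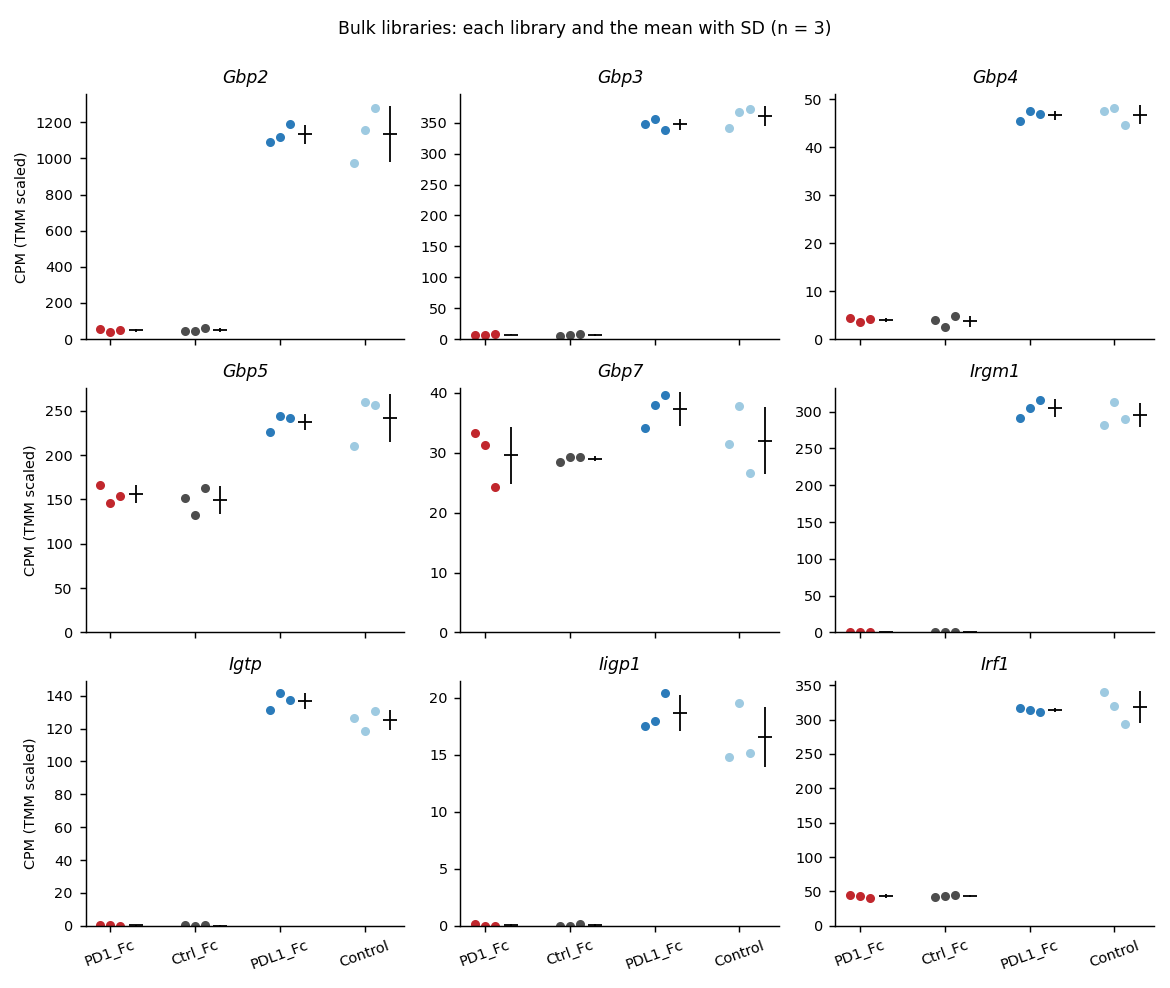
CPM after TMM scaling of each gene in the 12 bulk libraries (points) with the group mean and SD (n = 3), linear axes from 0. PD1_Fc overlaps Ctrl_Fc for 9 of 9 genes and PDL1_Fc overlaps Control for 8 of 9, while the 2 sets lie far apart for all genes but Gbp5 and Gbp7.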

How the data were processed

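Whole-number counts were deposited by the authors: UMI counts per gene and cell barcode in 5 single-cell matrices, and read counts per gene in 12 bulk libraries. Per the submitters' processing notes, bcl2fastq, Cell Ranger, STAR, HTSeq, bedtools and mm10 were used, and Cell Ranger 3.1.0 stands in 3 matrix headers; which other tool made which table is not given in the sources used here. Barcodes were dropped below 200 detected genes or above 10% mitochondrial UMIs, then Scrublet's doublets were removed, and classes were assigned from marker UMIs (cells that met more than 1 gate were not used). Counts were summed per class and library. Bulk counts were fitted over all 12 libraries with edgeR 4.0.16 (TMM, quasi-likelihood test, Benjamini-Hochberg adjustment) in R 4.3.3, with DESeq2 1.42.0 as an alternative, after a test on simulated data. Other versions were Python 3.11.15, scanpy 1.11.5 and scipy 1.17.1. Gene models came from GENCODE M21. The 9 genes are named in every comparison; of each fixed gene list up to 4 are named, those with the smallest p or the highest CPM. The 9 genes and the lists were chosen with earlier results of these data known. Nothing in the labels says that bulk libraries came from separate animals or cultures, so p-values measure the spread between these libraries, which may be technical. Libraries of a group differed by more than sampling noise. Values of 1 gene of the interferon gamma pathway are not reported here.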

Additional observations from a re-analysis of the deposited data

Results flagged for a closer look

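In flfl_CD4Cre against CD4Cre, 5 of the 9 genes were past the fold in at least 1 cell class and had the opposite direction in another, with intervals that excluded 0 on both sides. With 1 library per genotype the difference between classes was not tested. Iigp1 had log2 ratios of 3.23 in dendritic cells, 1.43 in T cells and 0.66 in macrophages, but -0.76 in monocytes and -1.67 in the tumour gate. Igtp was at 0.60 in T cells and 0.39 in macrophages, and at -1.18 in the tumour gate. Gbp3 was at 1.08 in macrophages and -0.73 in the tumour gate, Gbp7 at 0.19 in macrophages and -1.11 in the tumour gate, and Irgm1 at 1.23 in dendritic cells and -0.42 in the tumour gate. The other 4 genes, past the fold in no class at 50 CPM, also had intervals above 0 in macrophages and below 0 in the tumour gate, with Gbp2 at 0.85 and -0.99, Gbp5 at 0.76 and -1.15, Irf1 at 0.42 and -0.57, and Gbp4 at 0.12 and -2.44. The Gbp4 level in the CD4Cre tumour gate rests on 81 UMIs in 7 cells, 97.5% of them in the top 5. The intervals cover counting error only, not such spread between cells. In the tumour gate 96.9% of UMIs in flfl_CD4Cre and 95.2% in CD4Cre came from barcodes found in another library. Without these barcodes 7 of the 9 genes were below 0 there and 2 above, Gbp3 among the latter. The cause was not tested.

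Outside the genes studied, the pseudogene Gbp2-ps had at least 485 counts in each of the 6 PD1_Fc and Ctrl_Fc libraries, against at most 1 in the 6 PDL1_Fc and Control libraries.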

How the results depend on the processing

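The count of genes past the fold in single cells depended on the choice of cells. Leaving out shared barcodes or cells with other markers, and scaling by library sizes only, were chosen after seeing the data. In flfl_CD4Cre against CD4Cre, thinning to 2000 UMIs left 0 of the 9 genes past it in macrophages, dendritic cells and the tumour gate. The mean of per-cell CPM left 0 in macrophages and dendritic cells, where Iigp1 (2.75) and Irgm1 (1.14) had ratios over 1 but did not meet the rest of the rule, and 1 in the tumour gate. Leaving out shared barcodes left 0 in macrophages and dendritic cells, and leaving out cells with other markers left 0 in dendritic cells. Doubled gate thresholds gave 1 in dendritic cells and 3 in T cells. In flWT_CD4Cre against CD4Cre 1 gene passed in monocytes without doublet removal, in dendritic cells when thinned, in T cells by per-cell mean and in the tumour gate without shared barcodes. In flfl against WT 1 passed in monocytes when thinned, in dendritic cells with doubled gates and in the tumour gate with the median ratio set to 1. The number of genes highest in T cells of the Cre libraries, 0 as reported, was 1 without doublet removal and 2 when thinned, at up to 20% mitochondrial UMIs, by per-cell mean, without shared barcodes or without cells with other markers. The number highest in monocytes, 4 as reported, was 2 at up to 20% mitochondrial UMIs, by per-cell mean or without cells with other markers. Other member values kept their reading in 1032 of 1184 cases. The cause was not tested.

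In bulk, genes called in PD1_Fc against Ctrl_Fc, 7 as reported, were 18 with DESeq2, 27 with only those libraries, 0 with groups by the treatment field and 2 without the 4 libraries whose labels disagree. Small differences of this comparison changed sign: Gbp5 was at -0.00049 with DESeq2, -0.00047 with size factors, -0.0021 with library sizes only and -0.0021 with only those libraries, and Gbp7 at -0.040 in the first 2 and -0.043 in the other 2. Without the 2 libraries richest in Lyz2, Gbp2 was at 0.019, Gbp3 at 0.19 and Gbp7 at -0.064, and without the disagreeing labels Gbp4 was at -0.0049. By the treatment field, which mixes the 2 sets, Gbp2 was at 3.82, Gbp3 at 4.97 and Irf1 at 2.26 (edgeR adjusted p 0.088 to 0.0888). In PDL1_Fc against Control, 1 gene was called without a filter, and Gbp2 was at 0.0019 with library sizes only. By the treatment field Gbp7 was at -0.41, Irgm1 at -10.76, Igtp at -13.19 and Iigp1 at -10.27. In Ctrl_Fc against Control with library sizes only, Gbp5 was at 0.046 and Gbp7 at 0.60. By the treatment field PD1_Fc against PDL1_Fc gave 0 genes and 0 of the 9, and the difference of differences 10130 genes and 7 of the 9. That difference was otherwise called for 5 genes with DESeq2 and for 2 without the libraries richest in Lyz2.

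Leaving out each library in turn gave 0 to 8 genes called in PD1_Fc against Ctrl_Fc, 0 to 1 in PDL1_Fc against Control, 12476 to 14090 in Ctrl_Fc against Control, 12406 to 14069 in PD1_Fc against PDL1_Fc and 0 to 3 for the difference of differences. Of the 9 genes, 0, 0, 8 to 9, 8 to 9 and 0 were called. In PD1_Fc against Ctrl_Fc, Gbp2 ran from -0.17 to 0.12, Gbp3 from -0.15 to 0.16, Gbp4 from -0.14 to 0.32, Gbp5 from -0.012 to 0.14, Gbp7 from -0.068 to 0.16 and Irf1 from -0.079 to 0.022. In PDL1_Fc against Control, Gbp2 ran from -0.14 to 0.077, Irgm1 from -0.017 to 0.054 and Irf1 from -0.084 to 0.0052. Equal replicate numbers did not pair libraries (r -0.12 to 0.08), and the fit with a replicate block called 7, 0, 13418, 13405 and 1 genes in the 5 comparisons and put Gbp2 in PDL1_Fc against Control at 0.00048.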
